A study of Homo sapiens with 4 samples.

Results

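The 10 chemokine ligand genes CXCL1, CXCL2, CXCL3, CXCL5, CXCL16, IL8, CCL2, CCL5, CCL20 and CX3CL1 were followed in A549, a widely used cell line that was established from a human lung adenocarcinoma and resembles type II alveolar cells. They were taken by gene symbol from the deposited read counts and made up 10 of 34608 genes and 20 of 119207 transcripts. The list itself was chosen with earlier results of these data known. The polyadenylated RNA of 4 libraries was sequenced. In the dex group (2 libraries) cells were treated with 100 nM dexamethasone, a synthetic glucocorticoid, and in the etoh group (2 libraries) with the 0.02% ethanol vehicle, both for 3 h. All libraries came from the same line grown near confluence in F12K medium, and no inflammatory stimulus is named in the labels, so the etoh values are the line's own baseline. Values are reads scaled to 1000000 aligned reads per library (RPM), with all transcripts of a gene summed, and each mean is given with its SD over n = 2 libraries.

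Chemokines are small proteins that draw leukocytes along a concentration gradient through receptors that couple to G proteins. The CXC ligands CXCL1, CXCL2, CXCL3, CXCL5 and IL8 (CXCL8) mainly attract neutrophils through CXCR1 and CXCR2, the CC ligands attract monocytes, T cells and dendritic cells, and CXCL16 and CX3CL1 are made as membrane-anchored proteins that proteases can shed. In airway epithelium many of these genes are turned on through NF-kB, their mRNAs are often short-lived, and glucocorticoids are known to repress several of them.

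Libraries held 9764159 to 11887526 aligned reads, so 3 reads, the floor used for a gene at 0, correspond to 0.252 to 0.307 RPM. The hormone-induced genes FKBP5, TSC22D3 and PER1 rose in dex by 3.38, 4.45 and 3.87 on the log2 scale. Epithelial keratins were abundant, and the 6 epithelial markers summed to 7350 and 6288 RPM in dex and 3572 and 4156 RPM in etoh. Of these markers, KRT8 and KRT18 rose by 1.03 and 0.68 (log2), EPCAM stood at 8.34 to 11.3 RPM, and the part of this shift in the results below was not tested. KRT8 and KRT18 share 525 exonic bases on opposite strands. Without a stated strand setting, reads there cannot be assigned. The 8 leukocyte markers summed to 6.35 to 8.75 RPM, led by CD68 and CD14. Of their defining genes, PTPRC had 1 read in all 4 libraries and CD3E and MS4A1 had 0. The 6 fibroblast markers summed to 14.6 to 23.97 RPM, with 1 gene at 0. Of the 3 tested, COL1A1 was called higher in dex at 0.56 (log2), LUM (-1.12) and PDGFRA (-0.60) were not called, and the median was -0.60. The endothelial markers summed to 0.252 to 1.02 RPM, with CDH5 and KDR the 2 with most reads and VWF at 0.

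Dexamethasone lowered 4 of the 10 ligands within 3 h: IL8 fell 15.2-fold, CXCL1 12.5-fold, CCL2 3.71-fold and CXCL5 1.55-fold, as ratios of scaled reads whose intervals follow. CXCL2, CXCL16 and CCL5 were tested and did not pass, and CXCL3, CCL20 and CX3CL1 had too few reads for the test. The test was edgeR's quasi-likelihood test over 14777 genes with Benjamini-Hochberg adjustment and a threshold of 0.05. It called 11.4% of all tested genes changed, 653 of them lower in dex (4.42%) and 1031 higher (6.98%). Of the 7 ligands tested, 4 were called lower and 0 higher. Their median log2 fold change was -0.69, against -0.0026 over all tested genes. Since the ligands were chosen with earlier results of these data known, this comparison describes the list and does not test it. Over all genes, 418 were lower when dex replicate 1 was left out, 406 when etoh replicate 1 was left out and 366 by the DESeq2 test, and the 4 ligands were called in each of these. Nothing in the labels tells whether the 2 libraries of each group are separate cultures. The p-values therefore reflect only how much these libraries vary, and that may be technical. In bulk RNA, fewer cells expressing a gene and less of its RNA per cell cannot be told apart.

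**Figure D1:**
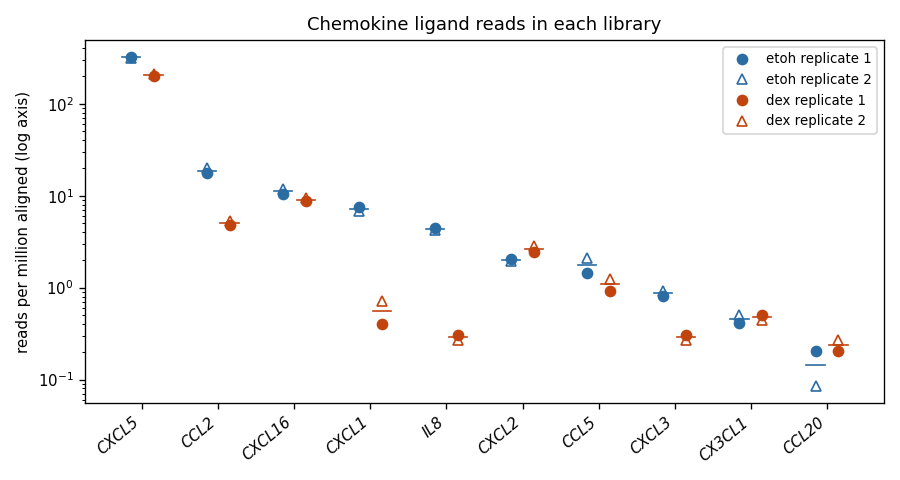
Level of the 10 chemokine ligands in each library in RPM, on a log axis, ordered by their etoh mean, with filled circles for replicate 1, open triangles for replicate 2 and short lines for group means. CXCL5 lies between 200.3 and 325 RPM in every library, while CXCL1 and IL8 drop from 4.21 RPM or more in etoh to 0.718 RPM or less in dex.

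The neutrophil-attracting ligands lie together on the long arm of chromosome 4. In GENCODE 29 on GRCh38, IL8 spans chr4:73740506-73743716 and CXCL1 chr4:73869393-73871242, both on the plus strand. CXCL5 (chr4:73995642-73998779), CXCL3 (chr4:74036589-74038807) and CXCL2 (chr4:74097035-74099293) lie on the minus strand. None of these genes shared exonic bases with another annotated gene. RefSeq promoter windows, which span 300 bases from 250 bases before the annotated start on GRCh38.p14, were at hand for 6 of the 10 genes: these 5 and CCL20. The word GGAATTTCC, which matches the consensus of NF-kB sites, was searched on both strands. It occurred in 5 of the 6 windows, all but that of CCL20. Only this exact word was sought, and other forms of the site were not looked for, in CCL20 or elsewhere. Of 35116 promoter windows of the same length, 162 held the word (0.461%). Among them were those of CXCL6, CXCL10 and CXCL11, ligands outside the 10. The 30 bases around the word are shown so that the genes called lower (CXCL1, CXCL5 and IL8) can be read against CXCL2, which was not called. CXCL3 is shown too, but it had too few reads for the test, and these were fewer in dex. Each runs 5′ to 3′ on the strand of its gene, with the word in capitals.

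CXCL1 (chr4:73869305-73869334): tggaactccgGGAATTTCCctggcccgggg
CXCL2 (chr4:74099253-74099282): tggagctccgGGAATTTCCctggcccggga
CXCL3 (chr4:74038748-74038777): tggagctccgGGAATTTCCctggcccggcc
CXCL5 (chr4:73998748-73998777): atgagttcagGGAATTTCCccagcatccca
IL8 (chr4:73740468-73740497): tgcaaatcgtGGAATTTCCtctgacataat

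In this stretch CXCL1 and CXCL2 had 28 identical bases of 30, and CXCL1 and CXCL3 had 27. CXCL1 shared 17 with CXCL5 and 17 with IL8. Counted from the RefSeq start, the word began at -78 in CXCL1, -77 in CXCL2, -78 in CXCL3, -90 in CXCL5 and -91 in IL8. GENCODE 29 places the starts of CXCL2, CXCL3, CXCL5 and IL8 farther upstream, by 98, 118, 102 and 63 bases. Counted from those starts, the word lies downstream of the start in CXCL2, CXCL3 and CXCL5 and upstream of it in IL8. The position relative to the start thus depends on the annotation. Over the 150 bases before the RefSeq start, CXCL1 was 88.7% identical to CXCL2 and 88.1% to CXCL3, but 50.6% to CXCL5 and 45.1% to IL8. A match is a description of the letters and not a measured binding site.

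The stretch upstream of both the RefSeq and the GENCODE 29 start is given for CXCL1 and IL8, the ligands with the largest decreases. Counted from the RefSeq start, it runs from -150 to -1 in CXCL1 and from -150 to -64 in IL8. The NF-kB word and, in IL8, an AP-1 word are in capitals.

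CXCL1 (chr4:73869243-73869392): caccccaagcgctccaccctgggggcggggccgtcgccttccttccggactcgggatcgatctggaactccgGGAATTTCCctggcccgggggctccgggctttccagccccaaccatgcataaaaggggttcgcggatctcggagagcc
IL8 (chr4:73740419-73740505): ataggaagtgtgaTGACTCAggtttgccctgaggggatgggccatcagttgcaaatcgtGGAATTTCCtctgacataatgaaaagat

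The AP-1 word TGANTCA was present in the IL8 window alone among the 6, with its first base at -137, and in 7.71% of all promoter windows. The C/EBP word TTGCNNAA was found in CXCL2 alone, on the strand opposite to the gene with its first base at -188, and in 10.5% of all windows. Only exact matches to a word were counted. The IL8 stretch shown above holds ttgcaaat, which differs from the C/EBP word in its last base. The glucocorticoid response element GNACANNNTGTNC was found in 0 of the 6 windows and in 137 of all windows (0.390%). Its shorter hexamer AGAACA was found in CXCL2 alone, at -212, and in 14.8% of all windows. These letters were not searched outside the windows, where many glucocorticoid receptor sites are known to lie.

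**Figure D2:**
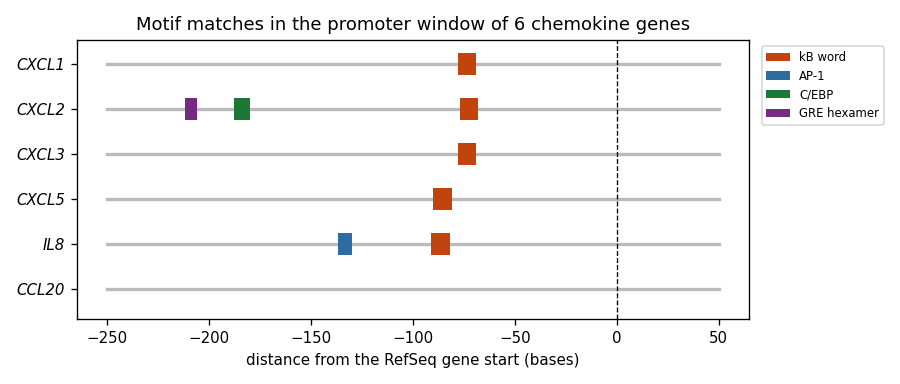
Positions of motif matches in the promoter windows of 6 chemokine genes, with the distance from the RefSeq gene start in bases on the x axis and 1 line per gene. Only exact matches to each word are drawn. The NF-kB word (kB word) starts between -91 and -77 in 5 genes, and the AP-1 word is seen in IL8 alone. The C/EBP word and the glucocorticoid hexamer (GRE hexamer) are seen in CXCL2 alone, and CCL20 has no match to these words.

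IL8, the best known neutrophil attractant of epithelial cells, had 44 and 50 reads in etoh replicates 1 and 2 and 3 and 3 reads in dex replicates 1 and 2. In RPM these were 4.51 and 4.21 against 0.305 and 0.269, so both dex libraries lay far below both etoh libraries and the groups did not overlap. The mean fell from 4.36 ± 0.212 to 0.287 ± 0.0254 RPM. The log2 fold change was -3.85 with an SE of 0.45 (edgeR, Benjamini-Hochberg adjusted p = 1.8e-06). Since the dex level rests on 6 reads in all, the ratio of reads is also given: etoh was 15.2-fold higher, with an exact 95% counting interval of 6.72 to 42.4. Without molecular identifiers, all intervals of reads given here account for counting error and nothing else. Both IL8 transcripts had fewer reads in dex. IL8-001 went from 30 and 45 reads in etoh to 2 and 2 in dex, and IL8-002 from 14 and 5 to 1 and 1.

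CXCL1, which acts on neutrophils mainly through CXCR2, had 74 and 81 reads in etoh and 4 and 8 in dex. In RPM the etoh libraries stood at 7.58 and 6.81 and the dex libraries at 0.407 and 0.718, again without overlap. The mean fell from 7.20 ± 0.541 to 0.563 ± 0.220 RPM, a log2 fold change of -3.61 with an SE of 0.36 (edgeR adjusted p = 1.5e-07). By reads, etoh was 12.5-fold higher, with a counting interval of 6.96 to 24.7. The intervals of IL8 and CXCL1 overlap widely, and no order between them can be read.

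CXCL5, another CXCR2 ligand and the most abundant of the 10, had 3175 and 3741 reads in etoh and 1969 and 2362 in dex. Its levels were 325 and 314.7 RPM in etoh and 200.3 and 212 RPM in dex. The groups did not overlap, and the 2 libraries of each group lay close together. The mean fell from 319.9 ± 7.40 to 206 ± 8.28 RPM, a log2 fold change of -0.62 with an SE of 0.10 (edgeR adjusted p = 7.3e-05). By reads etoh was 1.55-fold higher, with a counting interval of 1.49 to 1.61, so its change was far smaller than those of IL8 and CXCL1 while its counts were the most precise.

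CXCL2, a close relative of CXCL1 that uses the same receptor, had 20 and 23 reads in etoh and 24 and 32 in dex. Its RPM values were 2.05 and 1.93 in etoh and 2.44 and 2.87 in dex, so the dex libraries were the higher ones and the groups did not overlap. The means were 1.99 ± 0.0803 and 2.66 ± 0.305 RPM. The log2 fold change of 0.44 had an SE of 0.33 and did not pass (edgeR adjusted p = 0.47), and the read ratio of dex to etoh of 1.34 had a counting interval of 0.888 to 2.05. That interval leaves out a decrease of the size seen for IL8 or CXCL1.

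CXCL3, the remaining member of this close group, had 8 and 11 reads in etoh and 3 and 3 in dex. Both dex libraries, at 0.305 and 0.269 RPM, lay below both etoh libraries, at 0.819 and 0.925 RPM. The ratio of dex to etoh was 0.326, with a counting interval of 0.107 to 0.849. CXCL3 was below the count filter of the main test; fitted without that filter its edgeR log2 fold change was -1.56 with an adjusted p of 0.24, so it was not called.

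The groups did not overlap for 8 of the 10 ligands, with CXCL2 the only one of these higher in dex. Among all tested genes 53.3% had groups that did not overlap, so with 2 libraries against 2 this count alone says little.

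**Figure D3:**
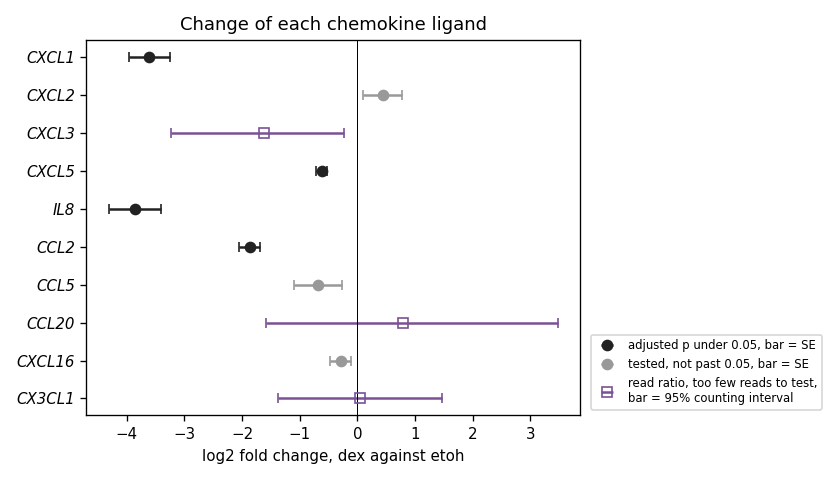
Change of each chemokine ligand in dex against etoh on a log2 axis, with filled circles for edgeR fold changes (bars are SE) and open squares for read ratios of the 3 genes with too few reads to test (bars are 95% counting intervals). IL8 and CXCL1 lie near -3.85 and -3.61, CCL2 at -1.87 and CXCL5 at -0.62, all called, while CXCL2 lies at 0.44 with its bar (SE 0.33) and is not called.

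CXCL1, CXCL2 and CXCL3 are close copies, and their reads were compared with each other within each library, which needs no scaling between libraries. The 3 genes had 102 and 115 reads together in etoh and 31 and 43 in dex. CXCL1 held 72.5% and 70.4% of these reads in etoh and 12.9% and 18.6% in dex. Exact 95% intervals (Clopper-Pearson) were 62.8 to 80.9% and 61.2 to 78.6% in etoh, and 3.63 to 29.8% and 8.39 to 33.4% in dex, so the intervals of the groups do not meet. CXCL2 held 19.6% and 20% in etoh and 77.4% and 74.4% in dex, which made it the leading copy under dexamethasone. CXCL3 held 7.84% and 9.57% in etoh and 9.68% and 6.98% in dex.

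There were 3.70 and 3.52 reads of CXCL1 for each read of CXCL2 in etoh, and 0.167 and 0.25 in dex. The ratio was 16.8-fold lower in dex, with a counting interval of 7.94 to 37.2. CXCL3 relative to CXCL2 was 4.12-fold lower (1.41 to 13.6), and CXCL1 was lower by 4.08-fold relative to CXCL3 (1.11 to 13.4) and by 8.09-fold relative to CXCL5 (4.49 to 16.01). In each of these 4 comparisons the dex libraries did not overlap with the etoh libraries. Their exact two-sided permutation p is 0.333, the smallest that 2 libraries against 2 allow.

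The similarity of these copies limits how sharply their reads can be separated. The counted transcripts of CXCL1 and CXCL2 were 80.1% identical over an alignment of their whole lengths, those of CXCL1 and CXCL3 71.3% and those of CXCL2 and CXCL3 66.6%. Of the 50-base windows of the CXCL2 transcript, 108 of 1169 (9.24%) also occur in another gene, 60 of them in CXCL1 and 54 in CXCL3. For CXCL1 the share was 60 of 1048 windows (5.73%) and for CXCL3 54 of 1026 (5.26%). Reads from such windows can be counted for either copy, and how many mismatches the aligner allowed is unknown here.

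**Figure D4:**
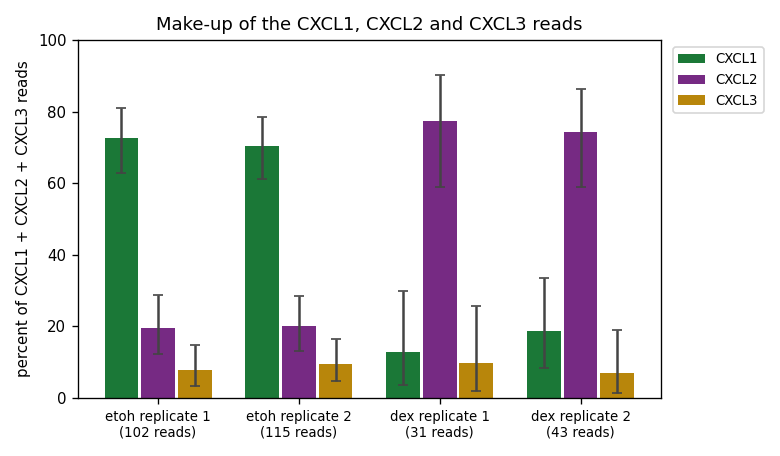
Percent of the summed CXCL1, CXCL2 and CXCL3 reads that each gene held in each library, with bars starting at 0 and error bars showing exact 95% binomial intervals. CXCL1 holds 72.5% and 70.4% in the etoh libraries and 12.9% and 18.6% in the dex libraries, with CXCL2 at 77.4% and 74.4% there.

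Among the CC ligands, CCL2, the main attractant of monocytes (chr17:34255218-34257203, plus strand), had 171 and 235 reads in etoh and 47 and 59 in dex. Its levels were 17.5 and 19.8 RPM in etoh and 4.78 and 5.30 RPM in dex, well apart. The mean fell from 18.6 ± 1.59 to 5.04 ± 0.364 RPM, a log2 fold change of -1.87 with an SE of 0.19 (edgeR adjusted p = 1.8e-07). By reads, etoh was 3.71-fold higher, with a counting interval of 2.99 to 4.64. Most reads were counted for CCL2-001, with 163 and 220 in etoh and 43 and 54 in dex. The shorter CCL2-004 had 8 and 15 in etoh and 4 and 5 in dex. The dex to etoh ratios of the transcripts were 0.262 (0.207 to 0.328) and 0.404 (0.165 to 0.906), with overlapping intervals.

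CCL5, also called RANTES, attracts T cells and monocytes and lies at chr17:35871491-35880793 on the minus strand. It had 14 and 25 reads in etoh and 9 and 14 in dex, or 1.43 and 2.10 against 0.916 and 1.26 RPM. The dex libraries were the lower ones, without overlap, but the gap between the groups was smaller than the gap between the 2 etoh libraries. Its log2 fold change of -0.69 had an SE of 0.42 and did not pass (edgeR adjusted p = 0.35), and the read ratio of 0.609 had a counting interval of 0.347 to 1.05.

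CCL20, the ligand of CCR6 on dendritic cells and lymphocytes (chr2:227805739-227817564, plus strand), had 2 and 1 reads in etoh and 2 and 3 in dex. Every library was at or under the floor of 3 reads, and the groups overlapped. The ratio of 1.72 had a counting interval of 0.335 to 11.1, so neither an increase nor a decrease was detectable at this depth.

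CXCL16 and CX3CL1, the membrane-anchored ligands, did not pass or could not be tested. CXCL16, the ligand of CXCR6 and a scavenger receptor for lipoproteins (chr17:4733526-4739922, minus strand), had 101 and 142 reads in etoh and 85 and 105 in dex. Its levels were 10.3 and 11.9 RPM in etoh and 8.65 and 9.43 RPM in dex, which did not overlap, with a gap between the groups smaller than the gap between the 2 etoh libraries. The log2 fold change was -0.29 with an SE of 0.18 (edgeR adjusted p = 0.38). The read ratio of dex to etoh was 0.807 with a counting interval of 0.664 to 0.980, which lies below 1 but does not hold the spread between libraries that the test includes. CXCL16-001 had 61 and 93 reads in etoh and 49 and 74 in dex, and CXCL16-002 had 34 and 48 against 35 and 24. Its exons share 85 bases with MED11 on the opposite strand, and reads there cannot be assigned since no strand setting is given.

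CX3CL1 (fractalkine, chr16:57372458-57385048, plus strand) had 4 and 6 reads in etoh and 5 and 5 in dex, at 0.410 and 0.505 against 0.509 and 0.449 RPM. The groups overlapped, and the ratio of 1.03 had a counting interval of 0.386 to 2.76. All 20 reads were counted for CX3CL1-003, and the 3 other listed transcripts, CX3CL1-001 among them, had 0 in every library. In GENCODE 29 the first exon of CX3CL1-003 (chr16:57376972-57379754, 2783 bases) starts inside the first intron of CX3CL1-001. Of the 5747 windows of 50 bases in CX3CL1-003, 46.0% occur in no other listed transcript. Reads from the last exon, which CX3CL1-001, CX3CL1-002 and CX3CL1-003 share, would have been spread over those transcripts.

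To compare levels between genes, RPM was divided by the length in kb of the transcript with most reads of each gene. In etoh, CXCL5 led at 126 ± 2.92 RPM per kb, followed by CCL2 at 25.2 ± 2.15, CXCL1 at 6.56 ± 0.493, CXCL16 at 5.02 ± 0.510, IL8 at 2.55 ± 0.124 and CXCL2 at 1.64 ± 0.0659. CCL5 (1.30 ± 0.347), CXCL3 (0.811 ± 0.0697), CCL20 (0.181 ± 0.107) and CX3CL1 (0.0789 ± 0.0116) closed the order. The ranges of neighbours did not overlap anywhere in this order, but they span 2 libraries and leave out counting error. CCL20 had 2 and 1 reads in etoh and CX3CL1 had 4 and 6, so the order of these genes comes from the transcript length. CXCL2 (20 and 23 reads) and CCL5 (14 and 25 reads) were also close.

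In dex, CXCL5 (81.2 ± 3.26 RPM per kb) and CCL2 (6.80 ± 0.491) kept the lead. CXCL16 (4.07 ± 0.248), CXCL2 (2.18 ± 0.250) and CCL5 (0.796 ± 0.177) then stood above CXCL1 (0.513 ± 0.201). CCL20 (0.296 ± 0.0582), CXCL3 (0.267 ± 0.0236), IL8 (0.168 ± 0.0149) and CX3CL1 (0.0826 ± 0.00730) came last. The first 2 of these had overlapping ranges. IL8 and CXCL3 had the same 3 and 3 reads in dex, and CCL20 had 2 and 3, so the order of these 3 genes comes mainly from the transcript length and is not resolved by the reads.

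All 10 ligands together held 370.03 and 363.0 RPM in etoh and 218.9 and 232.9 RPM in dex. CXCL5 made up 80.9% of that difference, and the mean changed by -13.6 RPM for CCL2, -6.63 RPM for CXCL1 and -4.07 RPM for IL8. The 9 ligands other than CXCL5 went from a summed mean of 46.6 to 19.7 RPM. CXCL5 thus held 87.9% and 86.7% of all ligand reads in etoh and 91.5% and 91.1% in dex.

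The 3' UTRs of the counted transcripts were searched for ATTTA, the core of AU-rich elements that mark short-lived mRNAs. The chromosome 4 ligands held many: 5 in CXCL1, 10 in CXCL2, 7 in CXCL3, 11 in CXCL5 and 9 in IL8, or 7.08, 13.9, 10.4, 5.51 and 7.19 per kb. The median of 9964 tested genes was 1.75 per kb. CCL2 held 1 (2.66 per kb) and CXCL16 held 1 (1.02 per kb). The longer word TATTTAT occurred 4 times in CXCL1, 8 in CXCL2, 3 in CXCL3, 3 in CXCL5 and 4 in IL8, was not found in CCL2 or CXCL16, and occurred in 35.0% of the tested genes. CCL5 could not be matched to the annotation by its length. For ATTTA, CCL20 held 3 (6.65 per kb) and CX3CL1-003 held 2 (0.995 per kb), and each held 1 TATTTAT. Whether these words bear on the changes in dex was not tested.

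The genes around the chromosome 4 ligands were followed from RASSF6 and AFM to PARM1. Of 12 neighbours, 6 were tested, with a median log2 fold change of -0.27. Of these 2 fell and 0 rose, against 4.42% and 6.98% of all tested genes. Both that fell encode ligands of the EGF receptor, as do the neighbours BTC, which was not called, and EPGN, which had too few reads to test. EREG (epiregulin), whose start lies 625 kb from that of IL8, had 199 and 210 RPM in etoh and 28.6 and 29.7 in dex, a log2 fold change of -2.79 (SE 0.11, edgeR adjusted p = 6.0e-14). AREG (amphiregulin), at 705 kb, had 30.7 and 28.3 RPM in etoh and 8.34 and 6.55 in dex (-1.97, SE 0.17, adjusted p = 1.5e-08). A separate entry, AREGB, also fell (-2.10, SE 0.24, edgeR adjusted p = 1.2e-06), and its reads are not included in these AREG values. MTHFD2L, at 374 kb and next to CXCL2, was not called at 0.02 (SE 0.33), and neither were RASSF6 (-0.31), BTC (-0.24) and PARM1 (0.32). The chemokine CXCL6, between IL8 and CXCL1, had 2 reads in the 4 libraries. CXCL2, at 359 kb, thus lay between CXCL5 at 258 kb and EREG, which both fell, without itself being called.

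**Figure D5:**
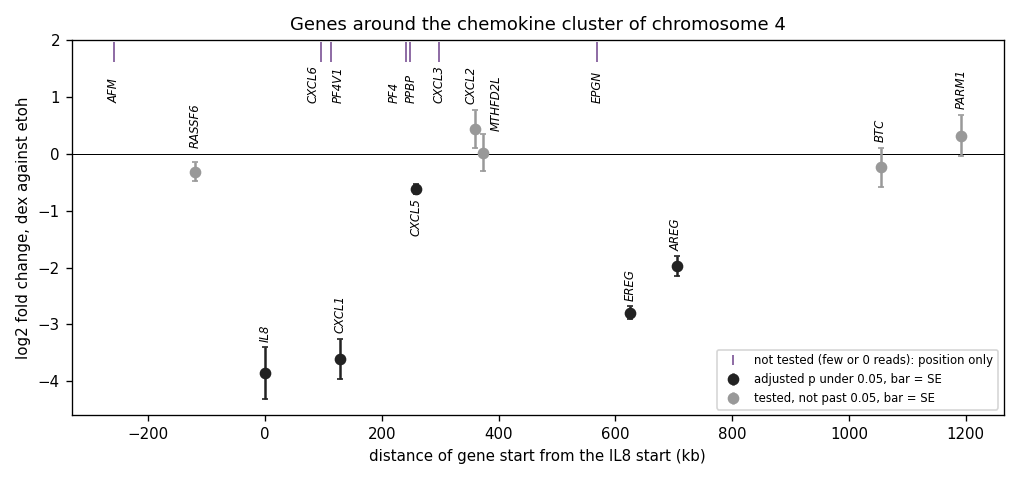
Log2 fold change in dex against etoh of the genes around the chemokine cluster of chromosome 4, against the distance of each gene start from that of IL8 in kb, with bars for SE and marks at the top for genes with too few reads to test. IL8 (-3.85), CXCL1 (-3.61), CXCL5 (-0.62), EREG (-2.79) and AREG (-1.97) are called, and CXCL2 (0.44), MTHFD2L (0.02), RASSF6, BTC and PARM1 are not.

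Of 38 other chemokine ligand genes, 27 had 0 reads in all 4 libraries and 2 were tested, with neither called. CXCL14, an ancestral chemokine of epithelia, had 135.7 and 78.8 RPM in etoh and 75.3 and 74.4 in dex. It narrowly missed the threshold (log2 fold change -0.50, SE 0.16, edgeR adjusted p = 0.051), and its high value came from etoh replicate 1 alone. CCL26, an eosinophil attractant, was at 0.22 (SE 0.43).

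Receptors were few. Of 27 receptor symbols searched, older names included, 23 were in the files and 8 of these had 0 reads. The test covered 3, with 1 called in each direction, against 11.4% called over all tested genes. ACKR3, a scavenging receptor for CXCL12, had 31.7 and 36.9 RPM in etoh and 13.6 and 18.7 in dex and fell by 1.07 on the log2 scale (SE 0.15, edgeR adjusted p = 2.7e-05). CXCR2, the receptor of the neutrophil-attracting ligands, had 1 read in all libraries. CXCR5 was called higher at 0.72 (SE 0.14, adjusted p = 6.6e-04), but its transcript shares 3925 exonic bases with BCL9L on the opposite strand, which itself rose by 0.97 (SE 0.11). Without a stated strand setting the reads of these genes cannot be told apart.

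Of 5 genes for shedding or trimming of chemokines, 1 rose and 0 fell, against 11.4% called over all tested genes. RHBDF2, a partner protein of the sheddase ADAM17, rose by 0.42 (SE 0.13, edgeR adjusted p = 0.034). The sheddases themselves, ADAM10 (-0.14, SE 0.10) and ADAM17 (0.09, SE 0.10), were not called.

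Of 13 NF-kB subunits, inhibitors and kinases, 2 rose and 3 fell, with a median log2 fold change of -0.19. Over all tested genes 11.4% were called. Both that rose restrain the pathway, but of other inhibitors NFKBIE fell and NFKBIB was not called at 0.30 (SE 0.19). NFKBIA, the inhibitor that holds NF-kB in the cytoplasm, rose by 1.85 (SE 0.10, edgeR adjusted p = 1.4e-11), and TNFAIP3, a ubiquitin-editing enzyme, by 0.82 (SE 0.23, adjusted p = 0.024). NFKB2 fell by 1.02 (SE 0.16), the inhibitor NFKBIE by 1.07 (SE 0.25) and REL by 0.44 (SE 0.13). RELA, which carries the transactivation domain of the usual dimer, was not called at -0.05 (SE 0.11). Any bearing of these genes on the ligands' levels was not tested.

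Of 15 cytokines and receptors that induce chemokines, 7 were tested, 1 rose and 1 fell, against 11.4% called over all tested genes. IL17RC, a subunit of the IL-17 receptor, rose by 1.20 (SE 0.18, edgeR adjusted p = 5.0e-05), and IL1RAP, the accessory chain of the IL-1 receptor, fell by 0.66 (SE 0.17, adjusted p = 0.0098). The cytokines were nearly absent: TNF had 0 reads in every library, IL1A had 2 and IL1B had 3 in all.

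Of 10 factors that bind AU-rich elements or degrade mRNA, 3 rose and 1 fell, with a median log2 fold change of -0.10. The share called over all tested genes was 11.4%. ZFP36 (tristetraprolin), which binds AU-rich elements and recruits deadenylases, had 14.4 and 15.7 RPM in etoh and 109 and 117 in dex, a rise of 2.92 (SE 0.12, edgeR adjusted p = 1.3e-13). ZC3H12A, an endonuclease that degrades cytokine mRNAs, rose by 1.65 (SE 0.16), and ZFP36L2 by 0.60 (SE 0.11). ZFP36L1 fell by 0.36 (SE 0.11, adjusted p = 0.037). Whether these changes bear on the ligands' levels was not tested.

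For the 3 ligands with a mean of at least 5 RPM, the genes with the most similar pattern were sought among 10951 tested genes of that abundance. Likeness was the Euclidean distance between log2(RPM + 0.5) values centred on each gene's mean, over the 4 libraries. For CXCL5 these were ATP13A3 (distance 0.0224, log2 fold change -0.59) and AVL9 (0.0352, -0.61). For CXCL16 they were BRD2 (0.0275, -0.29) and UNC119B (0.0319, -0.28). For CCL2 they were PLK2 (0.131, -1.87) and ENC1 (0.1503, -1.92), both more distant than the neighbours of CXCL5 and CXCL16.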

How the data were processed

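The deposited files hold raw counts of aligned reads per transcript, 1 file per library, with GENCODE-style names. CASAVA, Bowtie, SAMtools and DESeq2 are named in the submitters' processing notes, without version or role. The sources used here do not give the build, annotation release, strand setting or handling of reads with several alignments. In 14 pairs of transcripts with identical sequence and at least 100 reads, counts scattered around an even split (chi-square per degree of freedom 0.982), so each read was taken as counted once and transcripts were summed per gene. The unnamed row of unaligned reads (17.2 to 18.7%) was left out.

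Genes were kept by filterByExpr (minimum count 10), scaled by TMM and tested with edgeR 4.0.16 in R 4.3.3, two-sided, all 4 libraries in one fit without covariates. SE is the fold change divided by the square root of F. The biological coefficient of variation was 8.08%. No libraries were duplicates (chi-square per degree of freedom 5.81 within dex, 7.60 within etoh, 16.7 or more between groups). Read ratios carry exact conditional binomial 95% intervals. Positions, transcript sequences and 3' UTRs came from GENCODE 29, and promoters from RefSeq on GRCh38.p14. Code was tested on simulated data.

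The members and lists were chosen with earlier results of these data known. Named genes were all members, from each list the 4 called genes of smallest p (or, with no call, the 2 with most reads) and 2 nearest patterns per member of at least 5 RPM. Other named genes, such as RASSF6, BTC, PARM1, MTHFD2L, CXCL6, CXCR2, BCL9L, MED11, ADAM10, ADAM17, RELA, REL, TNF, IL1A, IL1B, EPCAM, PTPRC, CD3E, MS4A1, LUM, PDGFRA and VWF, were chosen after their values were seen. The alternatives tried were aligned totals, upper-quartile factors and DESeq2 size factors for scaling, no count filter, DESeq2 1.42.0 and limma-voom as tests, the largest transcript per gene, a replicate block and leaving out each library in turn.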

Additional observations from a re-analysis of the deposited data

How the results depend on the processing

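Under each of 13 alternatives, 4 ligands were called lower in dex and 0 higher. The log2 fold change ranged from -4.08 to -3.29 for CXCL1, -4.06 to -3.70 for IL8, -1.94 to -1.78 for CCL2, -0.65 to -0.58 for CXCL5, -0.37 to -0.18 for CXCL16 and 0.32 to 0.54 for CXCL2. CCL5 ranged from -0.93 to -0.38 in 12 of them and fell below the count filter with the largest transcript. Without 1 library, the read ratio ranged from 0.307 to 0.349 for CXCL3, 0.0620 to 0.0703 for IL8, 1.16 to 2.83 for CCL20 and 0.945 to 1.16 for CX3CL1, and the counting interval of CXCL3 included 1 in 3 of the 4 cases. With the largest transcript, the ratio was 4.13 (0.409 to 203) for CCL20 and 0.0551 for IL8, and those of CXCL3 and CX3CL1 were the same as with the sum.

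The counts over all genes moved more, and the cause was not tested. DESeq2 called 633 genes higher and 366 lower. Without 1 library, 406 to 806 genes were lower. Libraries with the same replicate number did not deviate together (correlation of deviations -0.113 over 14777 genes). That does not tell whether they were prepared as pairs. A replicate block gave 974 higher and 584 lower. A crossed replicate block, chosen after seeing the data, gave 1538 higher and 1172 lower. With few reads, depth limits CXCL3, CCL20 and CX3CL1 most. Where a library was left out, the lone library of its group was taken to vary as the pair did.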
